A study of Mus musculus with 3 samples.

Results

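The 38 mouse Hox genes described here were taken as a named set and followed through the cell classes of the aorta-gonad-mesonephros region (AGM), the trunk region in which blood stem cells first arise. They were 38 of the 27998 genes in the deposited matrix, and all 38 had a row in it. The set was defined by gene name and not by a measured value, but it was chosen with earlier results of these data known. The AGM was dissected at E10.5 from mouse embryos of 28 to 32 somite pairs, which were pooled, and its cells were profiled with 10x Genomics version 2 droplet libraries, which count 3′ ends of transcripts by unique molecular identifier (UMI). There were 3 sorted populations, all of cells negative for the erythroid antigen Ter119. These were the live AGM niche, the endothelial cells (CD31+ VCad+ CD41- cKit+) and the T1-preHSCs, type 1 precursors of haematopoietic stem cells (CD31+ VCad+ CD41low cKit+). Each population was 1 sample, run on 2 lanes per the labels. The strain and genotype of the embryos, and the number of embryos per pool, were not given in the sources used here.

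Hox genes encode homeodomain transcription factors that tell cells their position along the head-to-tail axis. They lie in 4 clusters, HoxA to HoxD, and genes at the same place in different clusters form paralogue groups, numbered 1 to 13. Low-numbered groups are switched on early and as far forward as the hindbrain, and high-numbered groups later and nearer the tail, an order called collinearity. The proteins bind DNA with cofactors of the TALE class, the Pbx, Meis and Pknox proteins, and Hoxa9 with Meis1 is a known partnership of haematopoietic progenitors. In the trunk at this stage the same axial code is read by the neural tube, somites, lateral plate and nephric duct, while haematopoietic cells are known for a code dominated by HoxA.

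The matrix held 9492 cell barcodes, of which 8915 remained after filters on depth, mitochondrial share and doublets, with a median of 7438 UMIs. Barcode suffixes numbered 1 to 8 mark 8 libraries of 104 to 1841 barcodes, more than the 6 lanes that the labels imply, and no label ties a suffix to a sorted population. The matrix was therefore treated as 1 pooled sample. Values are given per library beside the pooled ones, but the libraries are not replicates, no difference has a replicate check, and no test was made. In all, 54 barcode sequences occurred in more than 1 library, on 108 barcodes, with at most 7 for any pair of libraries. Cells were placed in 18 classes by marker genes, none of them a Hox gene, while 2012 cells had no class and 319 had an equal score in more than 1. Check genes not used for the gates were raised in 6 of 6 cases for endothelial cells, 6 of 6 for pre-HSC-like cells (blood genes together with Cdh5, 151 cells) and 4 of 4 for germ cells. The same 6 blood check genes were also raised in blood cells without Cdh5. They do not tell pre-HSC-like cells from other blood cells. The limb-type mesenchyme had 1 of 3 (Pitx1, with Tbx5 and Tbx4 at 8.39 and 3.73 CPM), the lateral plate 1 of 2 and the arterial-like endothelium 1 of 3. The genes of highest fold in the smooth muscle gate were its own Acta2 and Tagln, followed by striated muscle genes such as Actc1, Acta1 and Ttn. The megakaryocyte gate (95 cells, 42 of them at the minimum number of gate genes) had 3 of 3 check genes raised. When cells were clustered in place of gates, 27 of the 95 fell in the megakaryocyte cluster, 45 in the macrophage cluster and 22 in the pre-HSC-like cluster. Of the 470 limb-type cells, 274 were at the minimum number of gate genes. In the clusters 153 of them were limb-type, 231 lateral plate and 56 sclerotome. Of the 150 cells of the smooth muscle gate, 63 fell in the smooth muscle cluster. Endothelial cells came mainly from libraries 5 and 6 (1872 of 2004), pre-HSC-like cells from libraries 7 and 8 (105 of 151), germ cells from libraries 5 and 6 (209 of 227), and the niche classes from libraries 1 to 4.

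Levels are in CPM, the UMIs of a gene scaled to 1e6 UMIs of all genes over the cells of a class, with an exact 95% Poisson interval where one is given. Intervals cover counting error only. Because 3′ ends are counted, a level does not depend on transcript length. The gene clusters, read from the GENCODE vM21 annotation of GRCm38 (mm10), lay at chr6:52162417-52260880 (HoxA, 10 of the 38 genes), chr11:96194316-96368256 (HoxB, 10), chr15:102921103-103036852 (HoxC, 9) and chr2:74668310-74765142 (HoxD, 9). In that annotation the last 500 exonic bases of Hoxa7 are overlapped on the other strand by Hoxaas3, and those of Hoxb2 and Hoxb3 (493 bases) by Hoxb3os. Transcripts of Hoxd3 and Hoxd4 share exonic bases on the same strand, as do those of Hoxc5 and Hoxc10, so the split of reads within these 2 pairs is uncertain where it falls there. Use of strand in counting was not given in the sources used here, so reads of a gene and its antisense partner cannot be told apart. As counted, Hoxaas3 reached at most 32.6 CPM and Hoxb3os at most 10.8 CPM in any class.

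Of the 38 genes, 25 reached 20 CPM in at least 1 class. The other 13 were Hoxa4, Hoxa6, Hoxa11, Hoxa13, Hoxb13, Hoxc11, Hoxc12, Hoxc13, Hoxd1, Hoxd8, Hoxd11, Hoxd12 and Hoxd13. Hoxc13 had 0 UMIs in the 18 classes, Hoxb13 had 1 (in a germ cell) and Hoxc12 had 1 (in a neural progenitor). Neurons had the highest level for 9 of the 25 genes, neural progenitors for 5, the nephric epithelium for 4 and the sympathetic cells for 2. The remaining 5 genes were each highest in another mesodermal class, Hoxa10 in limb-type, Hoxc5 in dermomyotome or myotome, Hoxc10 in sclerotome, Hoxd9 in coelomic or gonadal and Hoxd10 in lateral plate cells. Only for Hoxa7, Hoxb5, Hoxc5, Hoxc6 and Hoxc9 did no other class have an interval that reached that of the highest class.

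Summed over the 38 genes, the Hox level ran from 2292 CPM in neurons and 1690 CPM in neural progenitors, through 1366 CPM in the nephric epithelium, to 872 CPM in gut epithelium. Pre-HSC-like cells stood at 299 CPM (275 to 324) and endothelial cells at 283 CPM. Their intervals reached over one another, and both were well under the 12 neural, neural crest-derived, mesodermal and gut classes. Megakaryocyte-gated cells had 106 CPM, other blood cells 96.5 CPM, macrophages 10.6 CPM and germ cells 1.0 CPM. Macrophages (median 10566 UMIs) and germ cells (median 8211 UMIs) give the Hox level of cells beside those of other classes, macrophages in libraries 1 to 4 and germ cells mainly in libraries 5 and 6. Libraries 7 and 8, which hold most pre-HSC-like cells, had 1 macrophage and 0 germ cells, so the background from free RNA was not measured there. The median depth was 7630.5 UMIs in endothelial and 12484 UMIs in pre-HSC-like cells.

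**Figure D1:**
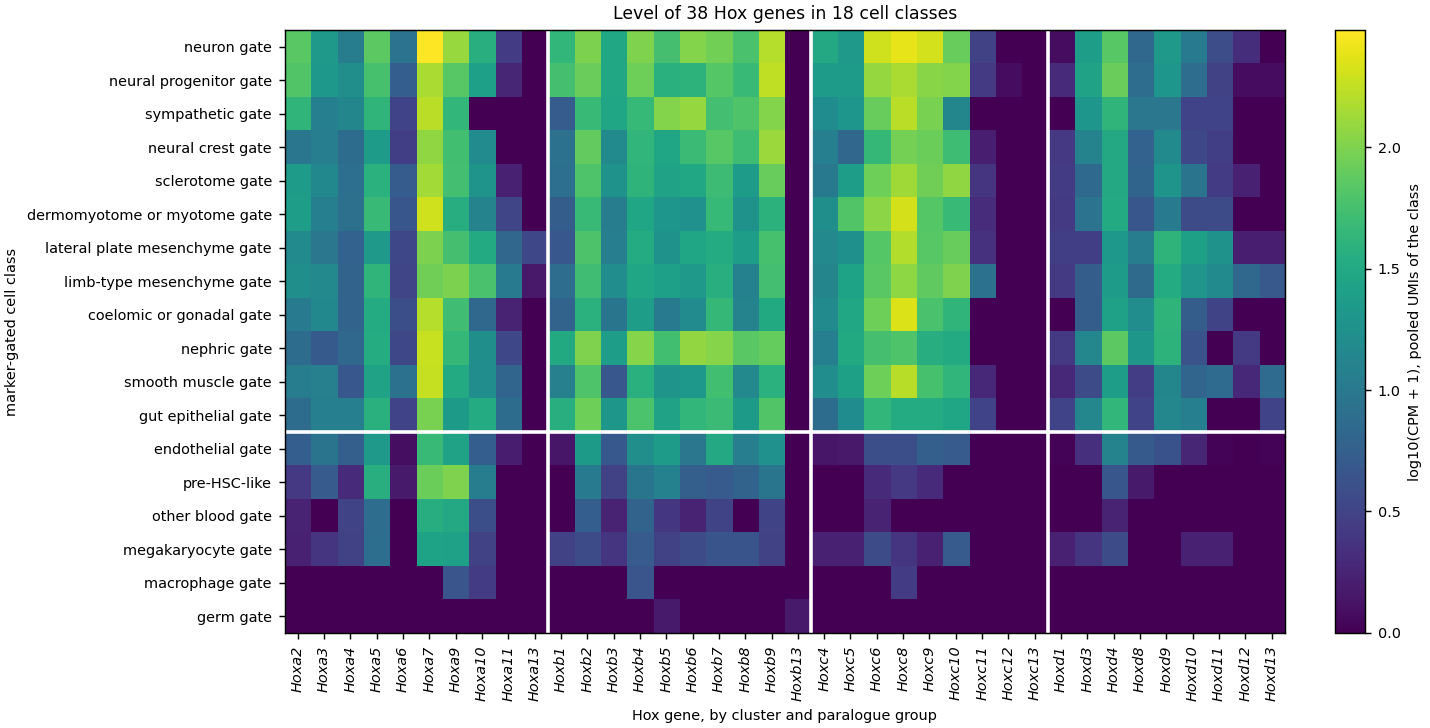
Heat map of log10(CPM + 1) for the 38 Hox genes (columns, in cluster and paralogue order) in 18 cell classes (rows), from summed UMIs. White lines part the clusters and set endothelial, blood and germ classes below the others. Columns of low and middle paralogue groups are bright in neural and mesodermal rows, while the pre-HSC-like row is bright mainly in HoxA and the germ row is dark.

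The number of Hox genes per cell was also highest in neurons. With each cell thinned to 3000 UMIs, neurons had 5.05 ± 2.40 Hox genes with a UMI (mean ± SD over 614 cells), neural progenitors 4.15, nephric cells 3.42 and the 7 pooled mesodermal classes 2.65. Pre-HSC-like cells had 0.87 ± 0.91 over 150 cells and endothelial cells 0.79 over 1932 cells. Unthinned, these were 2.48 and 1.90. At least 1 Hox UMI was seen in 58.7% (50.3 to 66.6, exact binomial) of thinned pre-HSC-like cells and 51.8% (49.5 to 54.0) of thinned endothelial cells, against 5.88% of macrophages and 0.901% of germ cells. The unthinned shares were 90.1%, 76.9%, 11.8% and 0.881%. Thinning left out 1 pre-HSC-like, 72 endothelial, 37 neuronal and 5 germ cells.

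The clusters were used unequally by the classes. Pre-HSC-like cells had 79.5% (76.0 to 82.7, exact binomial) of their Hox UMIs in HoxA, at 237 CPM, with 53.4 CPM in HoxB, 3.6 CPM in HoxC and 4.1 CPM in HoxD. Other blood cells had 80.6% in HoxA and megakaryocyte-gated cells 61.7%. Endothelial cells divided their Hox UMIs between HoxA (41.0%, 116 CPM) and HoxB (45.9%, 130 CPM), with 5.5% in HoxC and 7.5% in HoxD. In the 12 neural, neural crest-derived, mesodermal and gut classes the HoxA share ran only from 22.2% to 30.4%. HoxB took 50.4% in nephric epithelium but 18.4% in coelomic or gonadal cells, and HoxC took 45.0% in dermomyotome or myotome but 16.5% in nephric epithelium. HoxD stayed between 5.2% and 11.4% of the Hox UMIs in these 12 classes.

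**Figure D2:**
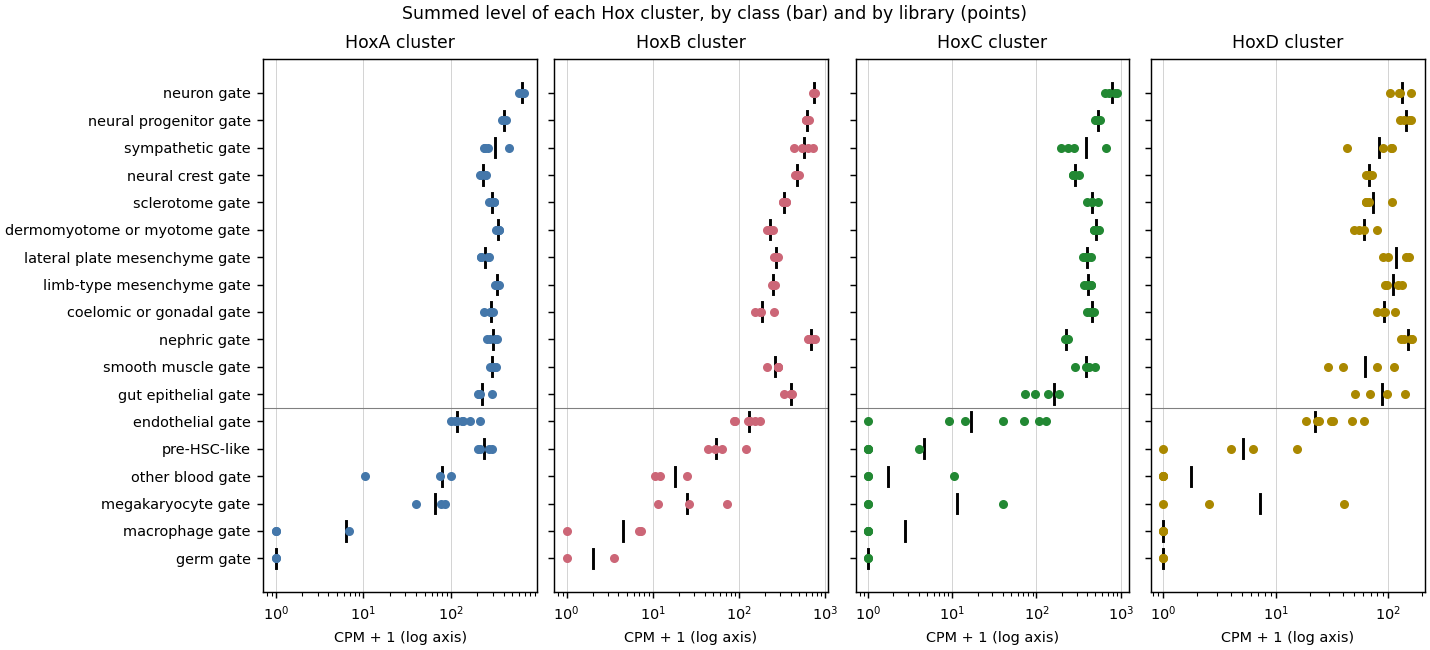
Summed level of each Hox cluster (CPM + 1, log axis, 1 panel per cluster) in 18 cell classes. Black bars mark the pooled class and points mark single libraries with at least 10 cells of it. HoxC in endothelial cells is the widest spread, 84.8 CPM in libraries 1 to 4 and 10.8 CPM in libraries 5 and 6.

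Within HoxA, Hoxa7, a trunk gene that is also a target of leukaemic MLL fusions, had the highest level of any Hox gene. In neurons it stood at 315, 313, 335 and 265 CPM in libraries 1 to 4, 303 CPM pooled, and the next class, dermomyotome or myotome, was at 201 CPM. The neuronal libraries were each above every dermomyotome library (198 to 208 CPM). Hoxa9, a driver of haematopoietic progenitor growth, was highest in neurons (124 CPM; 129, 117, 124 and 127 by library). Its second highest class was the pre-HSC-like cells at 101 CPM (86.9 to 115.7), next to limb-type mesenchyme at 97.9 CPM, and these 2 did not differ beyond counting error. Hoxa10, a gene of the lumbar region and proximal limb, was highest in limb-type mesenchyme (64.9, 53.7, 58.1 and 56.4 CPM in libraries 1 to 4) and had 0 UMIs in the 54 sympathetic cells. Hoxa2, which sets identity in the hindbrain and second pharyngeal arch, was at 69.5 CPM in neurons and 63.9 CPM in neural progenitors, but at 8.4 CPM in neural crest (3.8, 7.6, 6.1 and 15.6 by library). Hoxa5 was at 70.2 CPM in neurons and 35.8 CPM in pre-HSC-like cells, and Hoxa3, needed for thymus and parathyroid, at no more than 21.2 CPM anywhere.

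The 9 HoxB genes that reached 20 CPM were highest in neural, nephric or sympathetic cells. Hoxb9, a thoracic gene, was highest in neural progenitors (200, 157, 179 and 169 CPM by library) and next in neurons at 160 CPM. Hoxb1, the rhombomere 4 gene, was at 55.6 CPM in neural progenitors and 42.8 CPM in neurons. Outside the neural tube it was above 20 CPM only in gut epithelium (34.8 CPM; 11.8, 94.4, 9.7 and 21.5 by library) and nephric epithelium (31.2 CPM). The gut value rests mainly on library 2, and in the other classes Hoxb1 was at most 11.02 CPM. Hoxb2, Hoxb4, Hoxb7 and Hoxb8 were highest in the nephric epithelium, at 100.1, 107.5, 107.5 and 68.9 CPM, Hoxb7 being a gene whose promoter is widely used to mark the nephric duct and ureteric bud. By library, nephric Hoxb4 was steady (105, 113, 97.4 and 101 CPM), nephric Hoxb7 less so (102, 111, 160 and 84.3 CPM), and nephric Hoxb8 ran from 109 to 40.1 CPM. For Hoxb2 and Hoxb4 the neuronal level (98.5 and 99.8 CPM) was within the nephric interval. Hoxb5, known in neural crest and enteric neurons, led in sympathetic cells (103 CPM; 119, 25.2, 192 and 106 by library), and so did Hoxb6 (123 CPM), next to nephric epithelium at 119 CPM. Hoxb3, of the hindbrain and neck, reached 29.3 CPM in neural progenitors.

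HoxC includes genes known for setting brachial, thoracic and lumbar motor neuron identity. Hoxc8, Hoxc9 and Hoxc6 were highest in neurons, at 247, 206 and 198 CPM. Hoxc8 was nearly as high in coelomic or gonadal cells (255, 215, 220 and 208 CPM by library) and in dermomyotome or myotome (209 CPM). Hoxc9 in neurons differed between libraries, at 274 and 248 CPM in libraries 1 and 2 and 138 and 159 CPM in libraries 3 and 4. Hoxc10, a lumbar gene, was highest in sclerotome (110, 104, 108 and 136 CPM by library) and next in neural progenitors (104 CPM), and low in sympathetic cells (12.9 CPM). Hoxc5, a gene of the neck and forelimb level, had 73.5, 63.9, 57.5 and 58.5 CPM in dermomyotome or myotome of libraries 1 to 4, and its next class, nephric epithelium, was at 31.2 CPM. Hoxc4 reached 30.2 CPM in neurons.

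HoxD was the lowest cluster in the neural and mesodermal classes. Hoxd4, of the hindbrain and neck, led it with 81.3 CPM in neural progenitors and 70.6 CPM in nephric epithelium, and Hoxd3 reached 26.0 CPM in neural progenitors. Hoxd9 was level in coelomic or gonadal cells (39.9 CPM), lateral plate (39.8 CPM) and nephric epithelium (39.4 CPM). Hoxd10 passed 20 CPM in 1 class, lateral plate (24.9 CPM). Paralogue groups 11 to 13, the genes of sacrum, digits and genital tubercle, gave 581 UMIs in all kept cells, of which limb-type mesenchyme held 179, lateral plate 45 and the smooth muscle gate 22. Hoxd11 was highest in lateral plate (17.4 CPM) and limb-type cells (14 CPM), Hoxa11, Hoxc11 and Hoxd12 in limb-type cells (9.8, 7.7 and 5.8 CPM), and Hoxd13 in the smooth muscle gate (6.4 CPM, on 7 UMIs).

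The classes also differed in how far along the clusters their Hox UMIs lay. Groups 9 to 13 held 43.5% of Hox UMIs in limb-type mesenchyme and 40.3% in pre-HSC-like cells, against 18.8% in dermomyotome or myotome and 18.4% in nephric epithelium. Groups 1 to 4 held 33.4% in gut epithelium and 28.5% in neural progenitors, but 10.1% in pre-HSC-like cells. Paralogues of 1 group were not used alike. In group 9, pre-HSC-like cells had Hoxa9 at 101 CPM, Hoxb9 at 8.3 CPM, Hoxc9 at 1.0 CPM and Hoxd9 at 0 UMIs, whereas neural progenitors had Hoxb9 at 176 CPM, Hoxc9 at 109 CPM, Hoxa9 at 68.2 CPM and Hoxd9 at 19.3 CPM.

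**Figure D3:**
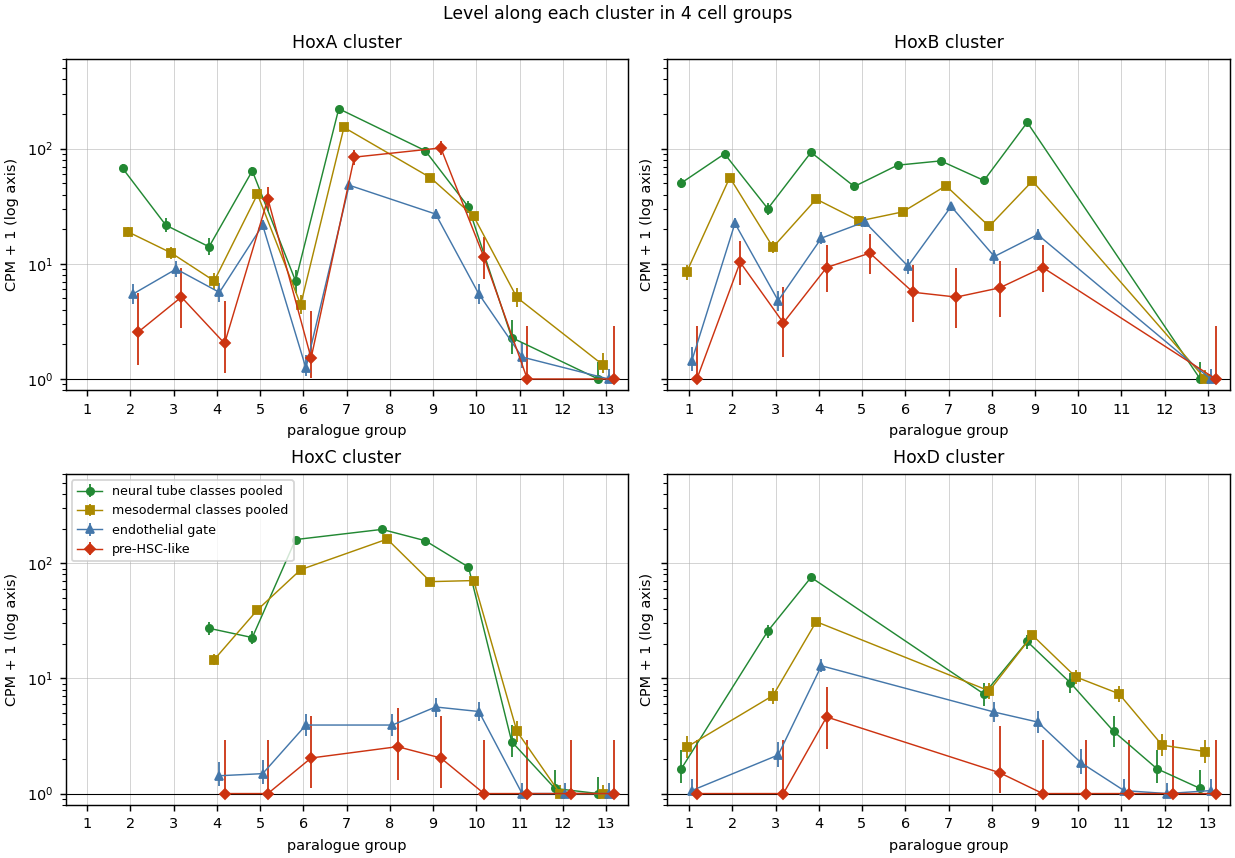
Level of each Hox gene (CPM + 1, log axis) against paralogue group, 1 panel per cluster, in 4 cell groups, with 95% Poisson intervals as bars. In HoxA the pre-HSC-like line lies above the endothelial line at groups 5, 7 and 9, by most at group 9. In HoxC the pre-HSC-like line lies near the floor together with the endothelial line.

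Cell classes were then compared in pairs. A gene was called where the ratio (log2, with 10 CPM added to both levels) was at least 1 in size, the higher level was at least 20 CPM, and each library with 20 cells of both classes had the same direction. Genes with at least 20 CPM in either class are those tested. A gene that reached 20 CPM in 1 class alone could only be called higher in that class. The shares over all genes cover genes that reached 20 CPM in either class or in both, so they are not like shares for such genes.

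The first comparison set the neural tube (neural progenitors and neurons, 1286 cells) against the paraxial mesoderm (sclerotome with dermomyotome or myotome, 1043 cells), tissues side by side in the trunk. Of the 23 Hox genes tested, 9 were called higher in the neural tube and 0 lower, beside 5.66% and 4.02% of the 5846 genes tested. The 9 were Hoxb1, Hoxb9, Hoxb6, Hoxb4, Hoxa2, Hoxb8, Hoxa9, Hoxd4 and Hoxd3, so HoxB gave 5 of its 9 tested genes and HoxC gave 0 of 6. The median ratio was 0.79 over the tested Hox genes and 0.04 over all genes tested. Hoxb1 had 41.7, 57.8, 44.7 and 51.0 CPM in the neural tube of libraries 1 to 4 and 4.1, 3.6, 6.4 and 6.8 CPM in paraxial mesoderm, 49.4 against 5.19 CPM pooled (log2 1.97). The groups of libraries were far apart for Hoxb1. Hoxb9 had 179, 148, 164 and 177 CPM against 42.5, 53.5, 59.8 and 48.1 CPM (log2 1.56), and Hoxa2 had 69.0, 60.4, 69.1 and 69.8 CPM against 30.3, 22.1, 19.2 and 20.8 CPM (log2 1.21). Here too no neural library was as low as a paraxial one. Hoxb4, which expands blood stem cells when overexpressed, was at 92.0 against 31.6 CPM (log2 1.30), Hoxb6 at 70.9 against 20.9 CPM (1.39) and Hoxb8 at 51.9 against 19.2 CPM (1.09).

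The 3 called genes nearest the limit were Hoxa9 (95.1 against 40.1 CPM, log2 1.07), Hoxd4 (74.4 against 31.7 CPM, 1.02) and Hoxd3 (24.7 against 7.31 CPM, 1.01). Hoxc9 was just outside it, at 156 against 73.1 CPM, and Hoxc5 went the other way without a call (21.6 against 51.3 CPM, log2 -0.95). Hoxc8 and Hoxa7 were near parity, at log2 0.06 and 0.27. Hoxd3 and Hoxd4 lost the call in 7 of 17 alternative settings each, Hoxd3 without library 1 (log2 0.92) or 3 (0.98) and Hoxd4 without library 2 (0.95) or 4 (0.93). Hoxa9 lost it without library 3 (0.97), and Hoxc9 gained it without library 1 (1.05), 3 (1.02) or 6 (1.003). Without library 4, Hoxc5 was called lower (-1.11).

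Of the 9 genes called higher in the neural tube, 7 had a promoter in the RefSeq table, and the 3 of these that held a match to TGATNNAT are shown because of that match, as 250 bases that end just before the RefSeq start on GRCm38.p6. Capitals mark matches on either strand to TGATNNAT, the form bound by Hox and Pbx proteins together, TGACAG, the Meis form, or TTTATG, the Cdx form; in these 3 no match overlaps another. They are Hoxa2 at chr6:52164832-52165081 (minus strand), Hoxb1 at chr11:96365508-96365757 (plus strand) and Hoxb8 at chr11:96281655-96281904 (plus strand).
Hoxa2: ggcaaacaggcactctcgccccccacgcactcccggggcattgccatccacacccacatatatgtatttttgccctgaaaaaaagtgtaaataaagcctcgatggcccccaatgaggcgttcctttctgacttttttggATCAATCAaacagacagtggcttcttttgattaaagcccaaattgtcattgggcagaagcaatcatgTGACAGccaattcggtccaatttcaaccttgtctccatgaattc
Hoxb1: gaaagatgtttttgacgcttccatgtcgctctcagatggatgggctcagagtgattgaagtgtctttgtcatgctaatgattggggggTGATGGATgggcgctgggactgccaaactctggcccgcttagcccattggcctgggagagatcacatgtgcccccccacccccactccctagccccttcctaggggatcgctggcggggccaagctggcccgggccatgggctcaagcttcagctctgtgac
Hoxb8: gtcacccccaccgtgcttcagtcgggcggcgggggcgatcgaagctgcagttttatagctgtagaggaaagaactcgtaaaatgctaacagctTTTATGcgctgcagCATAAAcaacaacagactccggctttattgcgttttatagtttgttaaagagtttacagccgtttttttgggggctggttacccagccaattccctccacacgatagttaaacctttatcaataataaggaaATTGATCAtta
Each of the 3 holds 1 match to TGATNNAT, and the promoters of Hoxb4, Hoxa9, Hoxd3 and Hoxd4 hold 0. That motif was in 4 of the 24 promoters available for 22 of the 38 genes, and in 7.68% of the 32851 promoters of the same length in the table. TTTATG was in 5 of 24 and 10.8% of all, and TGACAG in 2 of 24 and 15.9% of all. The 24 promoters had a median of 12.5 CG pairs, against 6 in all promoters. A match is a description of these letters, not a bound site.

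**Figure D4:**
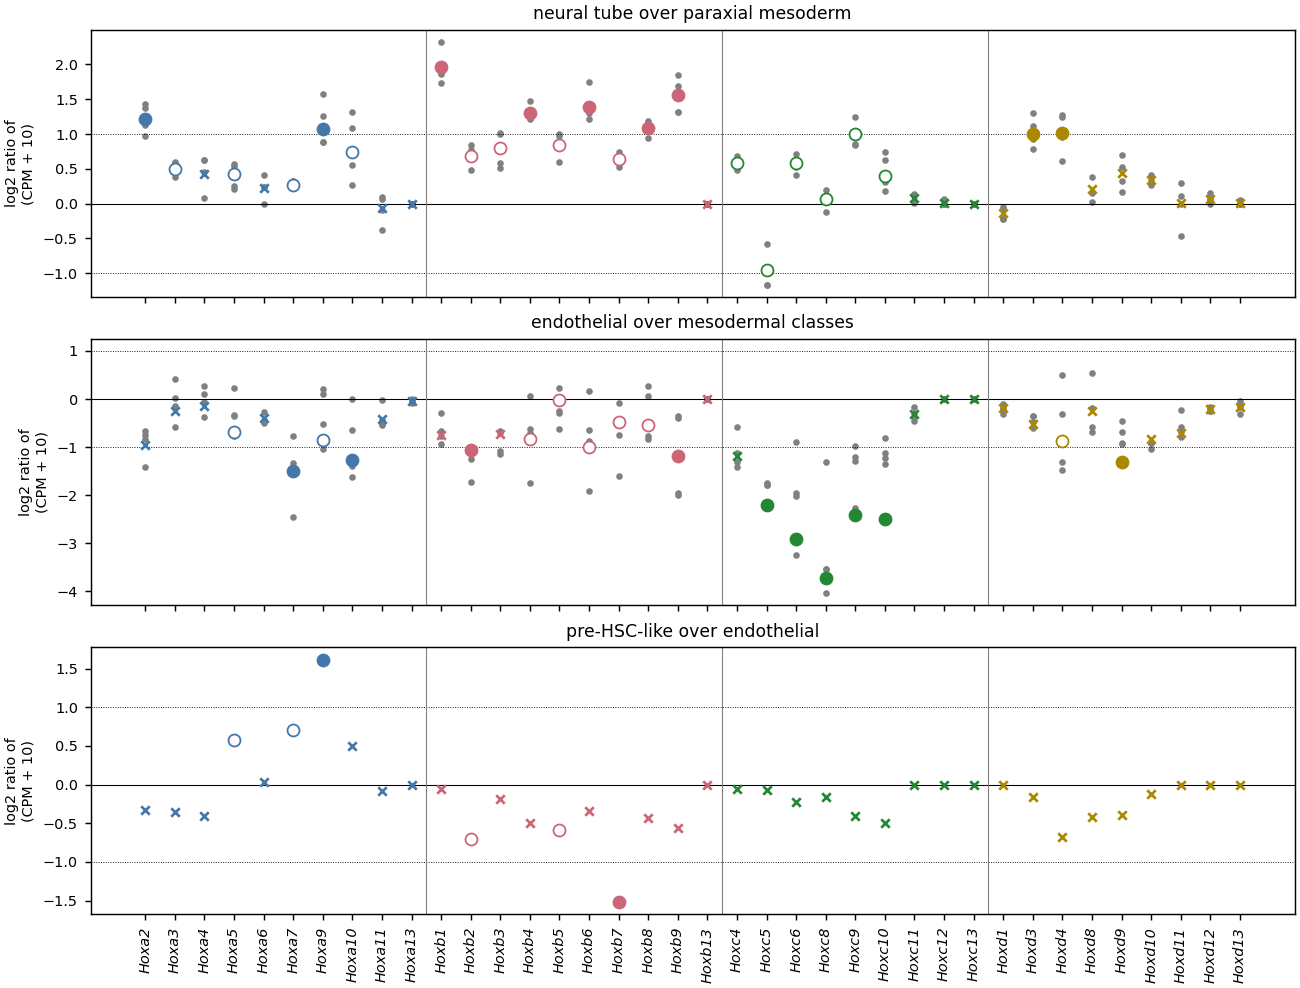
Log2 ratio (10 CPM added to each level) of each Hox gene in 3 comparisons: neural tube over paraxial mesoderm, endothelial over mesodermal cells and pre-HSC-like over endothelial cells. Filled points are called, open points tested and not called, and crosses under 20 CPM in both classes. Grey points are single libraries and dotted lines the limits of -1 and 1. The neural panel leans above 0 in HoxB, and in the endothelial panel the tested HoxC genes all lie under -1.

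Lateral plate mesenchyme (250 cells), which surrounds the gut and coelom and gives the limb field, was compared with the same paraxial mesoderm. Of 20 Hox genes tested, 2 were called higher (Hoxd9 and Hoxd10) and 1 lower (Hoxc5), beside 2.54% and 1.75% of 5701 genes. Hoxd9 had 40.3, 55.8, 27.7 and 41.6 CPM in lateral plate of libraries 1 to 4 and 12.7, 12.5, 12.8 and 10.4 CPM in paraxial mesoderm (log2 1.18). Hoxd10 had 16.6, 38.4, 20.2 and 28.4 CPM against 5.4, 4.8, 2.7 and 4.0 CPM (log2 1.28). Hoxc5 had 19.0, 17.5, 12.6 and 17.5 CPM against 62.4, 51.1, 49.1 and 43.8 CPM (log2 -1.19). For all 3 the library values did not overlap. With classes taken from clusters of cells in place of gates, none of the 3 was called, and without library 2 Hoxa5 was called lower (log2 -1.01).

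The AGM dissection spans several axial levels, and Hoxc10 was used to ask which Hox genes go with a lumbar code inside 1 class. Cells of 7 classes in libraries 1 to 4 were thinned to 3000 UMIs and divided by whether a Hoxc10 UMI was present (94 neurons with and 512 without, for example). Hoxa10, its HoxA paralogue, was higher in the cells with Hoxc10 in all 7 classes, by 2.51-fold in lateral plate to 10.36-fold in neural crest. In neurons it had 183, 83.3, 200.0 and 158 CPM by library in cells with Hoxc10 and 10.1, 26.2, 22.8 and 24.5 CPM in cells without. Hoxd9 was 2.29-fold (limb-type) to 10.60-fold (dermomyotome or myotome) higher in the 7 classes, and Hoxd10 2.11-fold to 9.55-fold in 6, with 1 UMI against 0 in neural crest. Hoxc8 went the other way in all 7, from 0.28 of the level in lateral plate to 0.77 in sclerotome. In neurons Hoxc8 had 96.8, 111, 33.3 and 52.6 CPM with Hoxc10 and 220, 286, 262 and 287 CPM without. Hoxa7 was likewise at 0.18 (neural crest, 2 UMIs) to 0.68 (neural progenitors) of the level in cells without Hoxc10. Hoxb9 was mixed, at 0.66 to 2.02. At 3000 UMIs a cell without a Hoxc10 UMI can still hold Hoxc10 RNA, so the split is by detection. The same ratios over all genes are not given here. These cell groups come from 1 pooled sample, and no test was made.

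**Figure D5:**
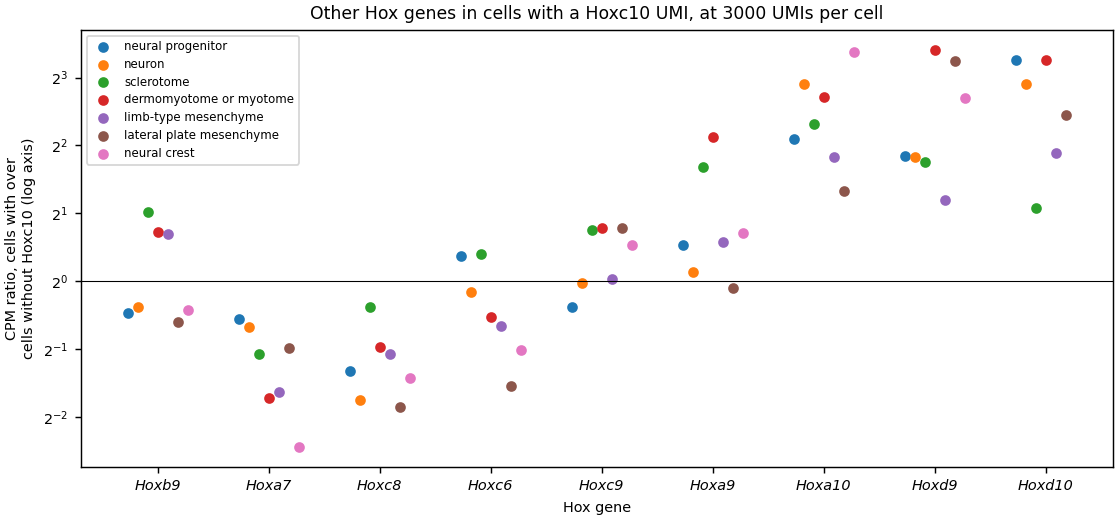
Ratio of CPM in cells with a Hoxc10 UMI to CPM in cells without (log axis, cells thinned to 3000 UMIs) for 9 Hox genes in 7 classes, 1 point per class. Points of Hoxa10, Hoxd9 and Hoxd10 lie above 1 and those of Hoxa7 and Hoxc8 under 1.

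Endothelial cells (2004) were compared with the 7 mesodermal niche classes pooled (2228 cells). Of 18 Hox genes tested, 10 were called lower in endothelium and 0 higher, beside 5.69% and 8.17% of 5972 genes. All 5 tested HoxC genes were among the 10, with 2 of 4 HoxA, 2 of 7 HoxB and 1 of 2 HoxD genes. Of the 10, only Hoxa7 and Hoxb2 reached 20 CPM in endothelium. The rest, all HoxC genes among them, reached it through the mesodermal classes alone and could only be called lower. The 5.69% is therefore not a like share. Hoxc8 had 5.8, 58.6, 4.6, 0, 1.0 and 2.7 CPM in endothelial cells of libraries 1 to 6, and 172, 160.0, 160.4 and 155 CPM in mesodermal cells of libraries 1 to 4 (2.94 against 161 CPM pooled, log2 -3.73). The other HoxC genes were Hoxc6 at 2.94 against 87.0 CPM, Hoxc10 at 4.16 against 69.8 CPM, Hoxc9 at 4.65 against 68.3 CPM and Hoxc5 at 0.49 against 38.4 CPM. Hoxa7 was lower by less, with 46.4, 58.6, 87.0, 17.4, 45.1 and 48.1 CPM in libraries 1 to 6 of endothelium against 150.0, 163, 156 and 141 CPM in libraries 1 to 4 of mesoderm (log2 -1.50). The remaining 4 called were Hoxd9 (log2 -1.31), Hoxa10 (-1.27), Hoxb9 (-1.19) and Hoxb2 (-1.05). Without library 1, Hoxb2 (-0.999) was not called, and without library 3 Hoxb6 was (-1.03). Hoxb5 was at 22.1 against 22.6 CPM. The median ratio was -1.12 over the tested Hox genes and -0.06 over all genes tested, and scaling by trimmed means moved all ratios by 0.15 and left 8 genes called. The Hox median includes the genes that reached 20 CPM through the mesodermal classes alone.

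The low HoxC level of endothelium depended on the library. It was 84.8 CPM (68.1 to 104) in the 116 endothelial cells of libraries 1 to 4, 10.8 CPM (9.24 to 12.6) in the 1872 of libraries 5 and 6, and 11.5 CPM on 3 UMIs in the 16 of libraries 7 and 8. HoxB was 134 and 130 CPM in the first 2 sets, HoxA 158 and 113 CPM, and HoxD 34.3 and 20.2 CPM. Macrophages of libraries 1 to 4 had HoxC at 1.87 CPM (1 UMI) and germ cells of libraries 5 and 6 at 0 UMIs, both under the endothelial level. With libraries 1 to 4 alone 7 Hox genes were called lower, Hoxa7, Hoxb2, Hoxc5, Hoxc6, Hoxc8, Hoxc9 and Hoxc10. Which populations these libraries hold is not given, so sort and library cannot be told apart.

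Pre-HSC-like cells were set against the endothelium, the tissue from which they bud. Of 6 Hox genes tested, Hoxa9 was called higher and Hoxb7 lower, beside 4.95% higher and 8.44% lower of 5879 genes. No library had 20 cells of both classes, so the check of direction within libraries was empty here. Hoxa9 had 118, 95.1, 117 and 91.2 CPM in pre-HSC-like cells of libraries 5 to 8, against 20.3, 35.2, 54.9, 69.4, 23.2 and 26.9 CPM in endothelial cells of libraries 1 to 6. Pooled it was 101 against 26.1 CPM (3.86-fold, log2 1.62), and each of these pre-HSC-like libraries was above each of these endothelial ones. Libraries 7 and 8, with 5 and 11 endothelial cells, are not in that list. Hoxb7 had 16.8, 7.31, 1.74 and 3.01 CPM in the pre-HSC-like libraries and 4.15 CPM pooled, on 8 UMIs (1.79 to 8.17), against 30.5 CPM in endothelium (log2 -1.52). Hoxa7 (83.4 against 47.2 CPM, log2 0.71), Hoxa5 (35.8 against 20.7 CPM, 0.58), Hoxb2 (-0.70) and Hoxb5 (-0.59) were not called. Within libraries 5 and 6, which hold 35 pre-HSC-like cells, Hoxa7 (109 against 46.8 CPM) and Hoxa9 (106 against 25.2 CPM) were both called higher, and Hoxb7 (11.7 CPM, 3 UMIs) was not called.

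The promoters of these 2 genes are shown in the same way, Hoxa7 at chr6:52218574-52218823 and Hoxa9 at chr6:52227371-52227620, both on the minus strand.
Hoxa7: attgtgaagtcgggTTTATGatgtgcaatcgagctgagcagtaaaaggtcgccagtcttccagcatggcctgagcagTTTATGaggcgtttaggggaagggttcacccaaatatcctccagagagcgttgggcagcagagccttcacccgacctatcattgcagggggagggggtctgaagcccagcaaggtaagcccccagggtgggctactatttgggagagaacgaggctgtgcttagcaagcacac
Hoxa9: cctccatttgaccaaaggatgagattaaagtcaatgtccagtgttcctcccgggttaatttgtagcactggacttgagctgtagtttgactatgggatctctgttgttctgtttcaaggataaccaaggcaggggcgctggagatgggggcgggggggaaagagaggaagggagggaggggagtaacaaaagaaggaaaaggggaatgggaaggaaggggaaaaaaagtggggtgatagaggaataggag
Hoxa7 holds 2 matches to TTTATG, and Hoxa9 holds no match to the 3 motifs in this window.

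HoxC was near 0 in pre-HSC-like cells, with 0 UMIs in libraries 5 and 6, 3 in libraries 7 and 8, and 4 in the 11 cells of libraries 1 to 4. After thinning, 52.7% of pre-HSC-like cells and 27.5% of endothelial cells had a HoxA UMI, and 0.667% and 3.16% had a HoxC UMI. Unthinned, the HoxA shares were 85.4% and 50.9%, and the HoxC shares 3.31% and 7.09%. The HoxA-led code was also seen in blood cells without Cdh5, but it went with the library. Other blood cells had 319 CPM of Hox in libraries 5 and 6 (15 cells), 105 CPM in libraries 7 and 8 (61 cells) and 14 CPM in libraries 1 to 4 (36 cells), where Hoxa9 had 0 UMIs. Megakaryocyte-gated cells of libraries 7 and 8 had HoxA at 78.9 CPM, Hoxa7 and Hoxa9 at 33.2 CPM each and HoxC at 0 UMIs. Those of libraries 1 to 4 had HoxA at 21.6 CPM and HoxC at 46.2 CPM. Most cells of this gate did not fall in the megakaryocyte cluster.

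Arterial-like (81 cells) and venous-like (1280 cells) endothelium gave no call among 6 Hox genes tested, beside 1.44% higher and 0.687% lower of 5675 genes. Hoxa7 was at 59.3 CPM in arterial and 47.9 CPM in venous cells, Hoxb7 at 47.9 against 30.4 CPM (log2 0.52) and Hoxb2 at 36.4 against 22.1 CPM (0.53). Hoxa9 was at 36.4 against 25.7 CPM, with log2 ratios of 0.56 in library 5 and -0.12 in library 6. The arterial values rest on 7 to 31 UMIs for each of the 6 genes.

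Germ cells, which migrate into the region from outside the trunk axis, carried almost no Hox RNA. In 227 germ cells there were 2 Hox UMIs, 1 of Hoxb5 and 1 of Hoxb13. All 18 Hox genes tested against the mesodermal classes were called lower, beside 20.2% of the 5901 genes tested being lower and 7.74% higher. All 18 reached 20 CPM through the mesodermal classes alone, so these calls restate the near absence of Hox UMIs in germ cells. The 20.2% also covers genes that reached 20 CPM in germ cells, so it is not a like share. Set against a floor of 3 UMIs over the class, Hoxc8 was at least 103-fold lower, Hoxa7 at least 97.2-fold, Hoxc6 at least 55.6-fold and Hoxc10 at least 44.6-fold. No library had 20 cells of both classes in this comparison either. The median ratio over all genes tested was -0.23, and scaling by trimmed means moved ratios by 0.19 and left all 18 called. Without library 1, 2 or 6 Hoxb8 stayed past the limit (log2 -1.48, -1.58 and -1.58) but fell under the 20 CPM minimum.

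The Hox cofactors of the TALE class were called in 4 of the 6 comparisons. In pre-HSC-like cells 2 of 5 tested were called higher than in endothelium, beside 4.95% of all genes, among them Meis1 (101 against 9.30 CPM, log2 2.52). Against mesoderm, endothelium was lower in 4 of 7, beside 5.69% of all genes. Among these were Meis2 (29.5 against 279 CPM), Meis1 (9.30 against 122 CPM) and Meis3 (3.36 against 57.0 CPM). The neural tube was higher than paraxial mesoderm in 2 of 8, beside 5.66% of all genes. These were Meis3 (214 against 57.3 CPM) and Pbx4 (27.6 against 6.99 CPM). Germ cells were lower in 5 of 7, beside 20.2% of all genes, among them Meis2 (2.09 against 279 CPM). Meis2 here, and Meis1 and Meis3 in endothelium against mesoderm, reached 20 CPM through the mesodermal classes alone. They could only be called lower. Lateral plate cells gave 0 of 7, beside 2.54% higher and 1.75% lower of all genes. Arterial cells gave 0 of 5, beside 1.44% higher and 0.687% lower.

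Of the genes inside or beside the clusters, Hoxb5os, a non-coding RNA of the HoxB cluster, was higher in neural tube than in paraxial mesoderm (218 against 28.7 CPM, log2 2.56), a larger ratio than that of any Hox gene there, and Skap2, beside HoxA, was at 64.2 against 26.8 CPM (1.01), 2 of 6 tested beside 5.66% of all genes. Hoxb5os was also the 1 of 5 lower in endothelium (3.18 against 27.2 CPM), beside 5.69% of all genes, and it and Hnrnpa3 were the 2 of 5 lower in germ cells, beside 20.2%. The retinoid genes feed the signal that turns on low-numbered Hox groups. Of these, Aldh1a2 was the 1 of 4 lower in endothelium (0.61 against 48.6 CPM), beside 5.69% of all genes. Rara, Rarb and Aldh1a2 were the 3 of 3 lower in germ cells (7.30, 1.56 and 4.17 CPM there), beside the same 20.2%. These 3 reached 20 CPM through the mesodermal classes alone, so they could only be called lower. The same holds for Aldh1a2 in endothelium and for Hoxb5os in endothelium and germ cells. Of 14 chromatin regulators of Hox clusters, Ring1 was called once, lower in endothelium (8.63 against 27.7 CPM, 1 of 12 tested, beside 5.69%). Of 5 upstream trunk and tail factors, Cdx2 was called once, higher in germ cells (26.1 against 0.21 CPM, 1 of 1 tested, beside 7.74%). It reached 20 CPM through germ cells alone, so it could only be called higher there. None of Gbx2, Pdx1, Gsx1 and Mnx1, homeobox genes of other families, reached 20 CPM in a compared class.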

How the data were processed

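Cells of 3 sorted samples came as 1 matrix of UMI counts, deposited by the authors as raw whole-number counts with lists of gene and barcode names; Cell Ranger and mm10 are named per the submitters' processing notes, and other steps are not given in the sources used here. The cell filter asked for 1000 or more UMIs, 500 or more genes and no more than 10% of UMIs from mitochondrial genes, which 9383 of 9492 barcodes met, and 468 likely doublets (the top 5% against simulated doublets, by library) were removed. Library medians ran from 6548 to 15593 UMIs. Cells were placed in classes where 2 gate genes (3 for endothelial, blood, macrophage, megakaryocyte, erythroid, germ and neuron) had a UMI; these numbers were set after depth was seen. Raw UMIs were summed per class and given as CPM. The call rule and a step that thins each cell to 3000 UMIs stand beside the results, and the rule was tested on simulated data. Genes are given with values by class where they reached 20 CPM in 1, and related genes where called, up to 4 a list; some results of that list are not reported here. The Hox genes and the lists were chosen with earlier results of these data known. Tools were Python 3.11.15, numpy 2.4.6, scipy 1.17.1, pandas 2.3.3, scikit-learn 1.9.0, leidenalg 0.10.2 and matplotlib 3.10.9. The alternatives tried were the scaling, the 10 CPM added, the 20 CPM minimum, depth, doublets, gates, clusters and each library left out. The cells with the erythroid gate were too few and were not reported.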

Additional observations from a re-analysis of the deposited data

How the results depend on the processing

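No direction was reversed for a called Hox gene in the alternatives run. With 50 CPM as the minimum, the calls were 1 in pre-HSC-like against endothelial cells, 1 in lateral plate against paraxial mesoderm and 8 in germ against mesodermal cells. Adding 1 CPM in place of 10 gave 14 calls in neural tube against paraxial mesoderm (13 higher, 1 lower) and 5 in lateral plate. With 1 more gate gene lateral plate gave 5 calls and arterial against venous cells 1, Hoxa9. With clusters in place of gates, lateral plate gave 0. Leaving out each library in turn gave 9 to 11 calls for endothelial against mesodermal cells, 8 to 10 for the neural tube, 3 to 4 for lateral plate, 17 to 18 for germ cells, 2 for pre-HSC-like cells and 0 for arterial cells. The cause of these differences was not tested. Calls kept in every alternative were 5 of 10 for endothelial cells (Hoxa7, Hoxc6, Hoxc8, Hoxc9 and Hoxc10), 5 of 9 for the neural tube (Hoxa2, Hoxb4, Hoxb6, Hoxb8 and Hoxb9), 1 of 2 for pre-HSC-like cells (Hoxa9), 8 of 18 for germ cells and 0 of 3 for lateral plate. The alternatives limited to libraries 1 to 4, to libraries 5 and 6, and without the smooth muscle gate were chosen after seeing the data. Arterial against venous cells was not run with clusters or without library 5. No paired analysis was possible because the samples share only 1 replicate number, barcodes are not tied to samples and no result comes from a test; direction within libraries was part of the call rule. The call of Hoxb7 in pre-HSC-like cells rests on 8 UMIs there, and the 13 Hox genes under 20 CPM could not be called.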

Other observations

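Hoxc9, the thoracic motor column gene, stood higher in libraries 1 and 2 than in libraries 3 and 4 in other classes than neurons as well, though not in neural progenitors (123, 108, 110.2 and 95.4 CPM). In paraxial mesoderm it had 103, 82.5, 64.6 and 47.0 CPM in libraries 1 to 4, and in limb-type mesenchyme 93.8, 90.8, 78.6 and 50.6 CPM. In sclerotome library 1 stood apart, with Hoxc9 at 171, 78.2, 72.5 and 57.5 CPM. Neighbouring Hoxc10 did not share this order, with 55.2, 70.4, 53.4 and 79.0 CPM in paraxial mesoderm and 90.3, 114.5, 93.4 and 99.2 CPM in limb-type mesenchyme. What these libraries hold apart from each other is not given, and the difference was not tested.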
